A study of Mus musculus with 6 samples.

Results

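Histone genes were examined in the frontal cortex of mice given the histone deacetylase inhibitor SAHA (suberoylanilide hydroxamic acid, vorinostat) or vehicle. The members were all genes whose symbol begins like a core, linker or variant histone (Hist1h to Hist4h, H1f, H2a, H2b, H3f, H3c, H4c, H4f or Macroh2a), which gave 48 of the 19938 genes measured. Of these, 31 were clustered genes, whose RefSeq synonyms place them in the clusters Hist1 to Hist4, and 17 were variant genes. Among the variants, 9 were variants of somatic cells and 8 were other variants, mostly known from germ cells. H2bu1-ps and Macroh2a3 are annotated as transcribed pseudogenes. H1f0, the replacement linker histone, was not analysed here.

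The SAHA group held 3 arrays from mice injected with 20 mg per kg of the drug, and the saline group held 3 arrays from mice injected with vehicle, which the sample titles call saline. Injections ran for 21 days, and frontal cortex was taken 1 day after the last. All mice were wild type, of the strain 129S6/SvEv and aged 8 to 12 weeks. Whether the arrays of a group stand for different mice is not stated in the labels; the p-values therefore cover a spread between arrays that may be technical.

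Nucleosomes wrap DNA around the core histones H2A, H2B, H3 and H4, and linker histones of the H1 family bind the DNA between them. Most clustered genes are transcribed in S phase, when new DNA is packaged, and their mRNAs end in a stem-loop instead of a poly(A) tail. Variant genes lie outside the clusters, many give polyadenylated mRNA throughout the cell cycle, and in neurons, which no longer divide, variants such as H3.3 replace the replication-coupled forms over time. Deacetylases remove acetyl groups from the tails of these proteins, so the substrates of the inhibited enzymes are products of the genes described here. RNA levels do not measure acetylation.

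Clustered and variant genes differ in their promoters, and the promoters shown next belong to the members on which the results turn: 2 pairs of H2A and H2B genes that face away from each other, the clustered gene with the greatest positive difference, and the linker variant with the greatest positive difference. The sequences are those of RefSeq, assembly GRCm38.p6, in which 41 of the 48 members had a promoter entry. Capitals mark 4 motifs on either strand. They are the CCAAT box, the TATA box with the letters TATAAA, the octamer ATTTGCAT, and the motif of H1 promoters that reads AAACACA. For the pairs the bases run from one annotated start to the other, on the plus strand.
H2ac8 and H2bc8, chr13:23571221-23571399: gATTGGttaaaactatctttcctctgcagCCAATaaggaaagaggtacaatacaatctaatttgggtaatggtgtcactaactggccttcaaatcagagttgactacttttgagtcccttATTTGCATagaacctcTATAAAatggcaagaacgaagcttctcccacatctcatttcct
H2bc1 and H2ac1, chr13:23934157-23934436: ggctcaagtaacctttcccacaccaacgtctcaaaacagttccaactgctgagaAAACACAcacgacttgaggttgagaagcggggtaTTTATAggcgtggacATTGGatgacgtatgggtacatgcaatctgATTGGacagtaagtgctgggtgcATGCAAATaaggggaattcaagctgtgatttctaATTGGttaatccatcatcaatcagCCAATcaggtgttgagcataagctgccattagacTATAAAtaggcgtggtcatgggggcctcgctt
H2ac15 and H2bc15, chr13:21753913-21754075: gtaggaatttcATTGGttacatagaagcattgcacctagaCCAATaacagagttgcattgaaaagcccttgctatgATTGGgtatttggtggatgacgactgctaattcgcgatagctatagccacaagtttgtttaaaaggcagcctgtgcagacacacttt
H1f10, chr6:87981483-87981682 on the minus strand, the 200 bases before its start: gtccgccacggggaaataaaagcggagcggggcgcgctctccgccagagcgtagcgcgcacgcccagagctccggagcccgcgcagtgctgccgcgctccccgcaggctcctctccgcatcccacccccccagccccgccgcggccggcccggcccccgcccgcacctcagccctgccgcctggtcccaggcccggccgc
The 3 pairs of clustered genes hold CCAAT on both strands, and the H1f10 stretch holds none of the 4 motifs. In windows of 300 bases (250 before to 50 after the start), the octamer was found in 9 of 26 clustered promoters, 0 of 15 variant promoters and 1.74% of all 32851 promoters. All 9 belonged to H2A or H2B genes, 4 of 5 and 5 of 8 promoters of those families. TATAAA was found in 16 of 26 clustered promoters, 1 of 15 variant promoters and 13.6% of all promoters. CCAAT was found in 22 of 26, 10 of 15 and 37.4% in the same order, and AAACACA in 4 of 5 clustered H1 promoters and 7.18% of all promoters. A match is only a description of the letters in the window.

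The tissue and the libraries were checked first. All 10 neuronal markers examined had a mean log2 signal of at least 9.37, where the median over all genes was 6.94, and of 26 markers of dividing cells 4 lay at or above that median. 2 arrays stood apart in X- and Y-linked genes. Xist was at 10.9 in saline replicate 1 and at most 4.88 on the other arrays. Saline replicate 1 also held Y-linked signal, with Uty at 8.19 and Eif2s3y at 9.20. Uty was at 6.74 in SAHA replicate 3 and at least 7.93 on the others. Eif2s3y and Kdm5d were lowest there too, at 7.80 and 7.23, and Xist was at 4.76. The cause was not tested. Results were therefore also computed with both of these odd arrays removed. No gene of the whole table passed the test between the groups (limma, Benjamini-Hochberg, 0 of 19938, or 0%, at a lowest adjusted p of 0.116). At an unadjusted p under 0.05 there were 3472 genes (17.4%), and the alternatives with a filter on signal or a variance trend called 27 to 31 genes, none of them a named histone gene.

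Histone genes lay on both sides of 0, and none passed the adjusted test. Of the 48 members, 27 had a higher mean in SAHA than in saline and 21 a lower one, and the median difference was 0.024 log2, where all genes had 0.011. At an unadjusted p under 0.05 there were 12 members, or 25%, where the background was 17.4%. Of these, 8 were higher (background 11.9%) and 4 lower (background 5.56%). Counts this small depended on single arrays: without saline replicate 1 there were 4 higher (background 8.65%) and 2 lower (background 3.51%). Without saline replicate 3 there were 5 higher (background 10.6%) and 5 lower (background 4.91%), and without SAHA replicate 2 there were 7 higher (background 12.8%) and 2 lower (background 6.66%). With both arrays that stood apart removed there were 6 higher (background 7.49%) and 3 lower (background 2.96%). The SAHA values lay entirely above or below the saline values for 9 members, or 18.8%, where the background was 23.9%. Of these 9, 5 were higher (background 13.6%) and 4 lower (background 10.4%).

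**Figure D1:**
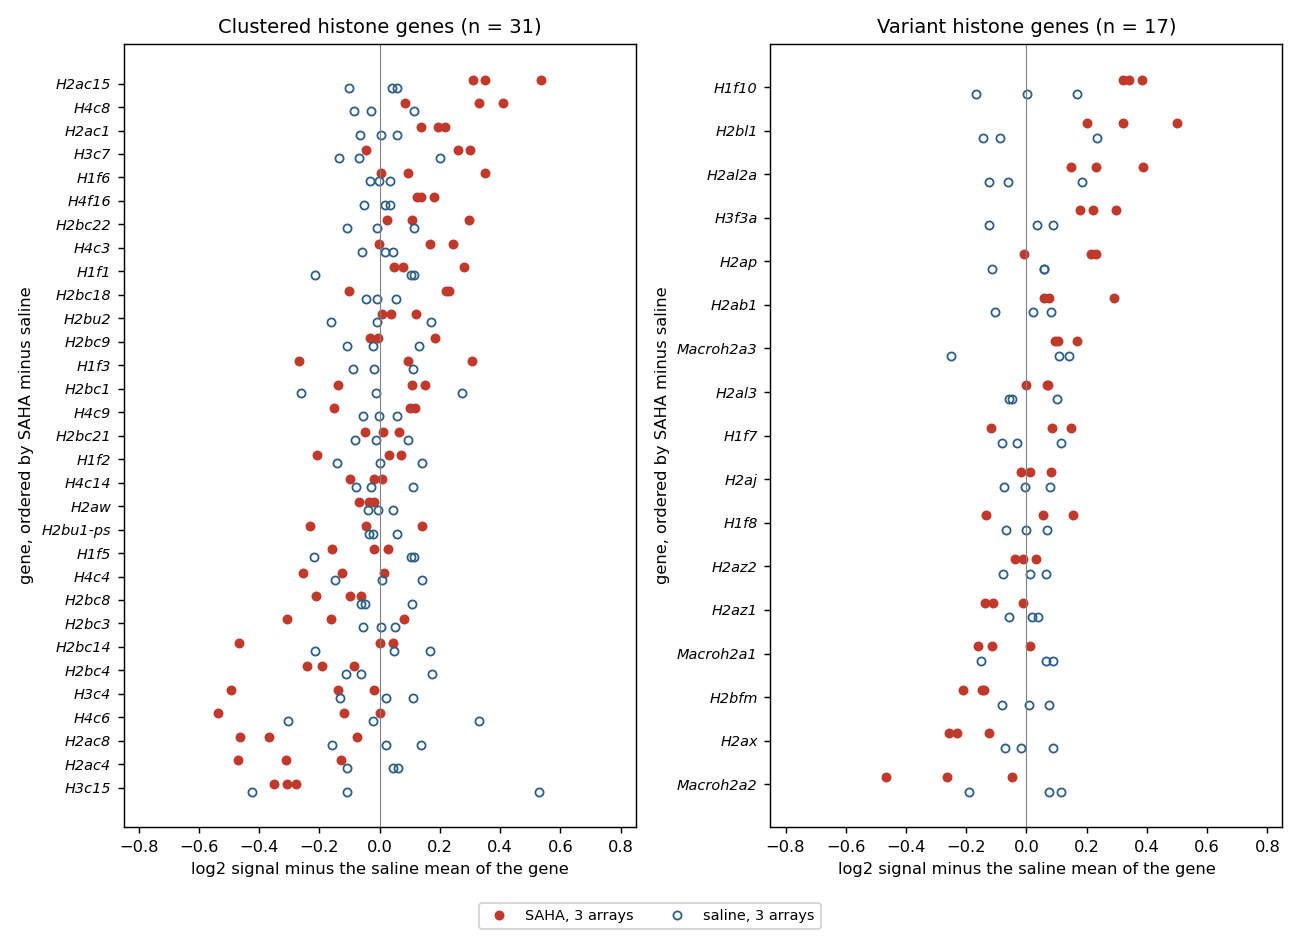
Log2 signal of each histone gene on each array, minus that gene's saline mean, with 3 SAHA arrays (filled) and 3 saline arrays (open) per gene, clustered genes on the left and variant genes on the right. Differences run from -0.31 to 0.40 log2, and the 2 groups of points overlap for 39 of the 48 genes.

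The difference between clustered and variant genes was not tested. At an unadjusted p under 0.05 there were 6 of 17 variant genes (35.3%) and 6 of 31 clustered genes (19.4%), where the background was 17.4%. Clustered genes had 16 members higher and 15 lower in SAHA, with a median difference of 0.0092. Variant genes had 11 higher and 6 lower, with a median of 0.039. After median centring the medians were -0.037 for clustered and -0.0072 for variant genes, where all genes had -0.035. After quantile normalization they were -0.0050 and 0.018, and after cyclic loess -0.022 and 0.020, so the sign of the clustered median turned under each of the 3 scalings. With 1 array left out, the clustered median lay between -0.031 and 0.048. The variant median was 0.10 when SAHA replicate 2 was left out, 0.064 for saline replicate 3, 0.021 for saline replicate 1, 0.016 for SAHA replicate 3, and 0.011 when both arrays that stood apart were left out.

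Bright genes of the array were lower in SAHA more often than dim ones, and the histone genes are given here beside all genes of like signal. The 17 members at or above the median signal had a median difference of -0.037, and 10 of them (58.8%) were lower in SAHA. All genes at or above it had a median of -0.039, and 66.4% were lower. At an unadjusted p under 0.05 these members had 3 higher (17.6%) and 1 lower (5.88%), where all genes at or above the median had 4.11% and 8.28%. The 31 members below the median signal had a median of 0.044, with 20 (64.5%) higher, where all genes below it had 0.089 and 72.3%. At an unadjusted p under 0.05 the members below it had 5 higher (16.1%) and 3 lower (9.68%). All genes below it had 19.6% higher and 2.84% lower. Among the clustered genes below it, 12 of 22 (54.5%) were higher. The part of this trend in the differences of the histone genes was not tested.

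**Figure D2:**
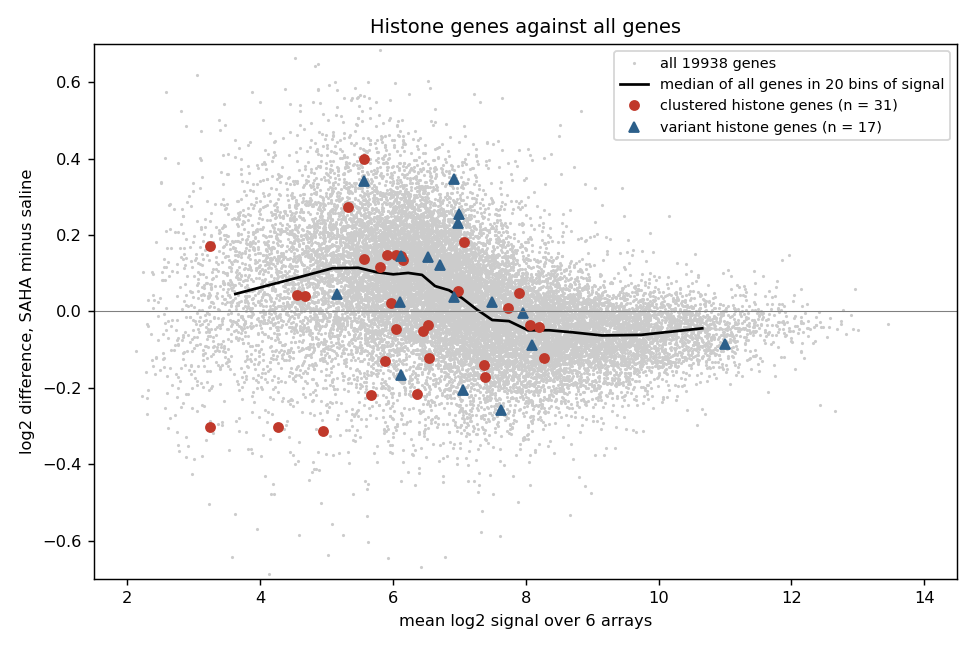
Log2 difference (SAHA minus saline) against mean log2 signal over 6 arrays for all 19938 genes (grey), with the 31 clustered (circles) and 17 variant (triangles) histone genes and the median of all genes in 20 bins of signal (line). The line lies above 0 for dim genes and below 0 for bright ones, and histone genes lie on both sides of it; 3 genes lie outside the plotted range.

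Linker histones held one of the greatest differences. H1f10 (H1X), a replication-independent H1 variant, was at 7.14, 7.09 and 7.07 log2 in SAHA replicates 1 to 3, against 6.753, 6.919 and 6.585 in saline replicates 1 to 3. All SAHA values lay above all saline values. The difference was 0.35 log2 (SE 0.088) at an unadjusted p of 0.0043 and an adjusted p of 0.146 in limma. Its values ran from 0.26 to 0.43 over the alternatives, at adjusted p between 0.0952 and 0.433, and it was 0.36 with both odd arrays removed. The other linker genes had smaller differences, and their difference from H1f10 was not tested. H1f1, H1f2, H1f3 and H1f5, H1 subtypes of somatic cells, differed by 0.13, -0.035, 0.044 and -0.051 log2 (SE 0.10 to 0.14). H1f6, the H1 of testis, differed by 0.15 (SE 0.092), and the groups overlapped for all 5. H1f4 had no probe set of its own. The probe set it shares with H2bc6 differed by 0.063 (SE 0.097), also with overlapping groups. The 95% intervals of H1f1 (-0.11 to 0.38), H1f3 (-0.27 to 0.36) and H1f6 (-0.063 to 0.36) reach the difference of H1f10. With both odd arrays removed, H1f3 and H1f5 turned sign, to -0.13 and 0.061, and H1f2 was at -0.16. H1f7 and H1f8, linker variants of spermatids and oocytes, differed by 0.039 and 0.024. H1f7 was at -0.0072 after median centring and -0.0053 after cyclic loess, H1f8 was negative after each of the 3 scalings, and both were negative with the odd arrays removed.

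Among variants of H2A, H2ax was lower in SAHA by the probe set that pairs with it alone. H2A.X is the form that is phosphorylated around DNA double-strand breaks. It was at 7.04, 6.90 and 6.93 log2 in SAHA, against 7.25, 7.09 and 7.14 in saline, with no overlap. The difference was -0.20 log2 (SE 0.069), at an unadjusted p of 0.018 and an adjusted p of 0.209 in limma. It was -0.15 with both odd arrays removed, and its adjusted p ran from 0.143 to 0.597 over the alternatives. The symbol H2ax also stands in 2 brighter probe sets shared by many clustered H2A genes, at mean signals of 8.59 and 7.84. These differed by 0.049 and 0.0067 with overlapping groups, and the first also bears the symbol H2aj. Which probe sets follow the mRNAs of H2ax and H2aj was not tested. H2az1 and H2az2 encode H2A.Z, found in nucleosomes at promoters and enhancers. H2az1 was at 10.909, 11.034 and 10.934 in SAHA, against 11.082, 10.988 and 11.063 in saline, a difference of -0.086 (95% interval -0.23 to 0.060). A second probe set of H2az1 differed by -0.091. H2az2 differed by -0.0054 (95% interval -0.15 to 0.14), and its sign turned after quantile normalization and cyclic loess. H2aj, a variant close to canonical H2A, differed by 0.025 (95% interval -0.13 to 0.18), which was -0.021 after median centring.

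The macroH2A genes encode H2A variants with a large globular tail that are enriched on the inactive X chromosome and in silenced chromatin. Macroh2a2 was at 7.49, 7.71 and 7.29 log2 in SAHA, against 7.87, 7.83 and 7.56 in saline. SAHA replicate 2 lay above saline replicate 3, so the groups overlapped. The difference was -0.26 log2 (SE 0.12) at an adjusted p of 0.319 in limma, and it rested partly on the arrays that stood apart, since it was -0.097 when both were removed. Macroh2a1 differed by -0.087 (SE 0.085) with all arrays and by -0.029 without those 2, and the pseudogene Macroh2a3 by 0.12 (SE 0.11).

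For H3.3, the variant of H3 that is deposited outside S phase, the probe sets did not give one answer. The probe set that pairs with H3f3a alone was at 7.16, 7.08 and 7.04 log2 in SAHA, against 6.90, 6.74 and 6.95 in saline, with no overlap. Its difference was 0.23 log2 (SE 0.074), at an unadjusted p of 0.014 and an adjusted p of 0.193 in limma. With both odd arrays removed it was 0.28. A further 4 probe sets pair with both H3f3a and Gm12657, and all 4 were lower in SAHA, by -0.092 to -0.17. H3f3b, the second H3.3 gene, has no probe set of its own. Its 2 probe sets, both shared with Gm6485, differed by -0.084 and -0.17, and the one with -0.17 was at 9.02, 9.13 and 9.09 in SAHA, against 9.28, 9.28 and 9.18 in saline. The 6 shared probe sets had mean signals of 8.42 to 9.87, and they were lower after quantile normalization and cyclic loess as well, by -0.027 to -0.13. The positive difference of H3f3a is thus that of 1 of 5 probe sets bearing its symbol, and which of them follows the H3f3a mRNA was not tested.

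**Figure D3:**
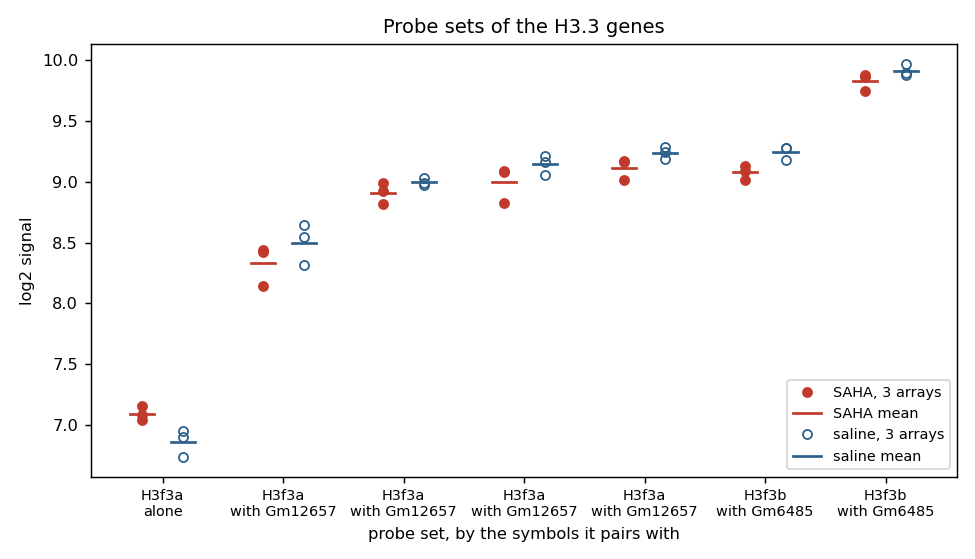
Log2 signal of the 7 probe sets that pair with H3f3a or H3f3b, with 3 SAHA arrays (filled) left of 3 saline arrays (open) and group means as bars. The probe set of H3f3a alone is higher in SAHA by 0.23 log2, while the 6 shared probe sets have lower means in SAHA, by 0.084 to 0.17.

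Clustered H2A genes held the greatest difference of any member. H2ac15 (Hist1h2ak) was at 5.72, 5.68 and 5.91 log2 in SAHA, against 5.42, 5.43 and 5.27 in saline, with no overlap. The difference was 0.40 log2 (SE 0.081), at an unadjusted p of 0.0012 and an adjusted p of 0.120 in limma. It ran from 0.30 to 0.44 over the alternatives, at adjusted p between 0.0965 and 0.389. The mean signal of H2ac15 was at percentile 19.1 of all genes. All genes below the median signal had a median difference of 0.089, and 19.6% were higher at an unadjusted p under 0.05. H2ac4 (Hist1h2ab) lay in the other direction, at 4.115, 4.299 and 3.955 in SAHA, against 4.32, 4.47 and 4.49 in saline. Its difference was -0.30 log2 (SE 0.096), at an adjusted p of 0.191 in limma, and it was -0.27 with both odd arrays removed. H2aw (Hist3h2a) differed by -0.042 (95% interval -0.17 to 0.090). The symbols H2ac15 and H2ac4 also stand in 2 probe sets shared by many clustered H2A genes. These were brighter, at mean signals of 8.59 and 7.84, and differed by 0.049 and 0.0067 with overlapping groups. Coding sequences of clustered histone genes are nearly identical, and cross-hybridisation between their probe sets was not tested. Which probe sets follow the mRNAs of H2ac15 and H2ac4 was not tested either.

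Of the 3 facing pairs whose shared promoters are printed at the beginning, 2 had a probe set for each gene. H2ac8 was at 3.32, 2.93 and 3.02 log2 in SAHA, against 3.41, 3.23 and 3.53 in saline, a difference of -0.30 (SE 0.12) with an overlap of SAHA replicate 1 and saline replicate 2. It is named here for its position, after its values were seen. Its mean signal was at percentile 1.39 of all genes, and that of H2ac4 at percentile 5.66, and whether either is above background was not tested. H2bc8, its partner, was at 6.55, 6.40 and 6.51 in SAHA, against 6.55, 6.71 and 6.56 in saline, a difference of -0.12 (SE 0.073). Its groups were apart only by the fifth decimal, since SAHA replicate 1 was at 6.5455 and saline replicate 1 at 6.54551. The adjusted p in limma was 0.247 for H2ac8 and 0.409 for H2bc8, and at the level of H2ac8 nothing is read from their sharing a sign. H2ac1 and H2bc1 encode H2A and H2B of testis. H2ac1 was at 7.17, 7.19 and 7.11 in SAHA, against 6.91, 7.035 and 6.98 in saline, a difference of 0.18 (SE 0.061) at an adjusted p of 0.209, while H2bc1 differed by 0.040 (SE 0.14) with overlapping groups and a sign that turned after median centring and cyclic loess. With both odd arrays removed, H2bc1 differed by 0.27 and H2ac1 by 0.17. H2bc15, the partner of H2ac15, has no probe set of its own.

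The clustered H2B genes, the largest family with 11 members, had 6 higher and 5 lower means in SAHA and 0 at an unadjusted p under 0.05. Their differences ran from -0.17 in H2bc4 to 0.14 in H2bc22, with a median of 0.0092, and with both odd arrays removed from -0.34 in H2bc14 to 0.27 in H2bc1. H2bc1 and H2bc21 had lower means after median centring. H2bc21 (Hist2h2be), which lies in the cluster on chromosome 3, was at 7.69, 7.75 and 7.80 in SAHA, against 7.72, 7.83 and 7.65 in saline, a difference of 0.0092 (95% interval -0.15 to 0.17).

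Clustered H3 and H4 genes encode the same few proteins from many loci, and most probe sets of the H3 genes pair with several symbols. The 3 clustered H3 genes measured alone, H3c4, H3c7 and H3c15, differed by -0.22, 0.17 and -0.31 log2, all with overlapping groups. For H3c15 saline replicate 1 stood at 5.63, against 4.99 and 4.68 in the other saline arrays, so the SE was 0.21. With both odd arrays removed, H3c15 differed by -0.050 and H3c7 by 0.074. Of the 7 H4 genes, 4 were higher and 3 lower, and H4c9, at 0.022, was lower after each of the 3 scalings. H4f16 (Hist4h4), the only measured gene of its cluster on chromosome 6, was at 6.09, 6.15 and 6.11 in SAHA, against 6.003, 5.988 and 5.918 in saline. Its difference was 0.15 (SE 0.058) at an adjusted p of 0.253 in limma, and 0.057 after cyclic loess. H4c8 differed by 0.27 (SE 0.097) with an overlap, at an adjusted p of 0.223 in limma, and was chosen after its values were seen. The symbols H4c8 and H4c9 also stand in 5 brighter probe sets shared by many clustered H4 genes. These had mean signals of 8.29 to 8.74 and lower means in SAHA, by -0.093 to -0.030, with overlapping groups. Which probe sets follow the mRNAs of H4c8 and H4c9 was not tested.

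Of the 8 other variants, 7 had higher means in SAHA, with a median of 0.094 (0.041 with quantile normalization, 0.026 with cyclic loess), and 7 of the 8 lay below the median signal. The count held only for the deposited scaling: 5 of 8 were higher after median centring or quantile normalization and 4 of 8 after cyclic loess. All genes below the median signal had a median of 0.089. H2bfm, an X-linked H2B of germ cells, was lower in each of these scalings, at 6.001, 6.065 and 6.072 log2 in SAHA, against 6.13, 6.29 and 6.22 in saline, with no overlap and a difference of -0.17 (SE 0.064) at an adjusted p of 0.250 in limma. H2bl1 and H2al2a, histones of spermatids named after their values were seen, differed by 0.34 (SE 0.12) and 0.26 (SE 0.099), both with overlapping groups.

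The proteins that make histone mRNA and place histones on DNA were examined beside the histones. Of 16 measured genes for histone gene transcription and mRNA processing, 12 had lower means in SAHA, with a median of -0.073, and 2 (12.5%) reached an unadjusted p under 0.05, both lower. Of the 16, 15 lay at or above the median signal, where 66.4% of all genes were lower, with a median of -0.039, and 8.28% were lower at an unadjusted p under 0.05. Slbp, which binds the stem-loop of replication-dependent histone mRNAs, was at 7.60, 7.60 and 7.56 in SAHA, against 7.88, 7.80 and 7.66 in saline. All SAHA values lay below all saline values, and the difference was -0.19 log2 (SE 0.070) at an adjusted p of 0.235 in limma. A second probe set of Slbp differed by -0.20, also with no overlap. Casp8ap2 (FLASH), which acts in the 3′ end processing of these mRNAs, differed by -0.17 (SE 0.069) at an adjusted p of 0.255, with no overlap. With both odd arrays removed, Slbp differed by -0.13 and Casp8ap2 by -0.12.

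Of 32 measured chaperones and deposition factors, 20 had lower means in SAHA, with a median of -0.067. Quantile normalization gave -0.017 and cyclic loess -0.022. Of these, 27 of 32 lay at or above the median signal, where all genes had a median of -0.039. At an unadjusted p under 0.05 there were 4 chaperones, 2 higher and 2 lower, or 6.25% each, where all genes at or above the median signal had 4.11% higher and 8.28% lower. Hira, which deposits H3.3 outside S phase, was at 7.81, 7.77 and 7.83 in SAHA, against 7.63, 7.73 and 7.58 in saline, with no overlap and a difference of 0.16 (SE 0.063) at an adjusted p of 0.258 in limma. Chaf1b, a subunit of the CAF-1 complex that deposits H3 and H4 behind the replication fork, differed by 0.31 (SE 0.093) at an adjusted p of 0.177, with no overlap. Its mean signal was at percentile 18.5, and 19.6% of all genes below the median signal were higher at an unadjusted p under 0.05. Npm1, a nucleolar histone chaperone, and Nap1l2, a neuronal member of the NAP1 family, differed by -0.26 (SE 0.11) and -0.18 (SE 0.077), both with overlapping groups. With both odd arrays removed, Npm1 differed by -0.094.

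**Figure D4:**
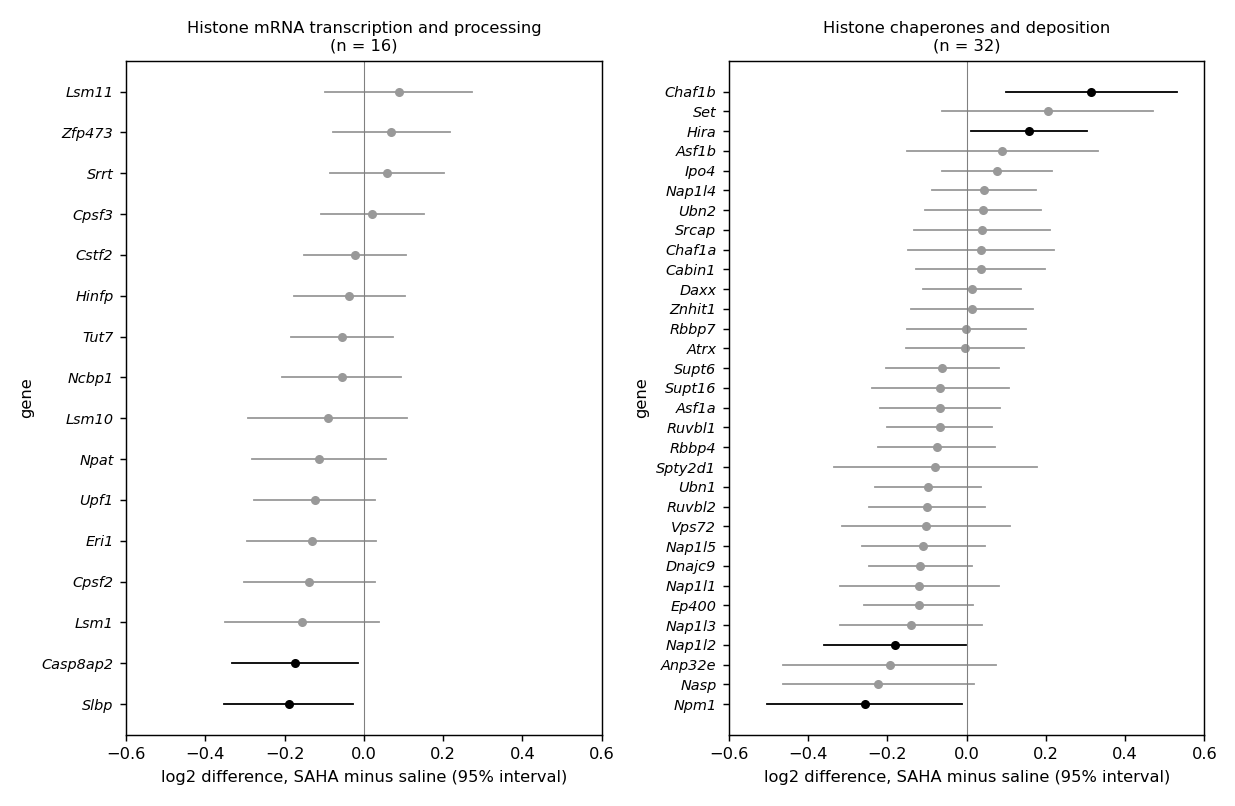
Log2 difference (SAHA minus saline) with its 95% interval for 16 genes of histone mRNA transcription and processing and 32 chaperones and deposition factors. Black marks an unadjusted p under 0.05, which 2 genes on the left and 4 on the right reached.

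Markers of other cell types and of dividing cells were set beside these values, since clustered histone genes are transcribed in dividing cells and fewer cells of a type cannot be told apart from less RNA per cell. Of the 26 markers of dividing cells, 15 had higher means in SAHA and 11 lower, with a median of 0.029 that turned negative after each of the 3 scalings, to -0.037 after quantile normalization. Of these, 5 reached an unadjusted p under 0.05, all higher: Top2a, Birc5, Aurkb, Mcm2 and E2f8. This is 19.2%, where 11.9% of all genes were higher at this p, and 19.6% of all genes below the median signal, where 22 of the 26 markers lay. Mki67 differed by 0.031 (SE 0.064). The list's median level was 6.34, 6.25 and 6.18 log2 in SAHA, against 6.181, 6.133 and 6.001 in saline. Blood cell markers were higher for 7 of 8, with a median of 0.23 and a median level of 5.59, 5.40 and 5.46 in SAHA, against 5.22, 5.28 and 5.16 in saline. The median was 0.18 after median centring, 0.15 after quantile normalization and 0.13 after cyclic loess. Only 1 of the 8 lay at or above the median signal, and 72.3% of all genes below it were higher, with a median of 0.089. Of the 8, 4 (50%) were higher at an unadjusted p under 0.05 in limma, where all genes below that signal had 19.6%. Groups did not overlap for 4 of the 8 (50%), all higher, where all genes below that signal had 20.0% higher without overlap. Oligodendrocyte markers had a median level of 8.55, 8.58 and 8.87 in SAHA, against 8.76, 8.75 and 8.88 in saline. The part of these shifts in the differences of single histone genes was not tested.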

How the data were processed

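Cortical RNA was amplified across whole transcripts and its biotin-labelled product hybridised to Affymetrix ST arrays, per the labels' protocols. The deposited values are log2 signals made by the authors with Affymetrix Expression Console and RMA, per the submitters' processing notes; versions are not given in the sources used here. RMA adjusts for background, puts the arrays on a shared scale and combines the probes of a set, so a probe set that takes up RNA of several similar genes gives 1 joint value. The number of arrays limits the precision, with a median SE of 0.0771 log2.

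Of 35556 probe sets, 21789 pair with 1 symbol in the platform annotation, 1621 with several and 12146 with none. The brightest probe set with 1 symbol stood for a gene. The difference SAHA minus saline was fitted in limma 3.58.1 (R 4.3.3; lmFit, eBayes), unblocked, two-sided, with Benjamini-Hochberg adjustment over all 19938 genes, a threshold of 0.05 and no filter. Standard errors and 95% intervals are those of the moderated fit. The fit was also run on simulated data, but how often it finds differences of the size seen here is not reported. Per-array values are given in the order of replicates 1 to 3.

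Members, lists and tests were chosen with earlier results of these data known. Named were all somatic variants, members with groups that did not overlap, and of the partner lists up to 3 genes per direction at an unadjusted p under 0.05. The alternatives were 3 scalings, a signal filter, other probe set rules, variance trends, a replicate block, other thresholds and arrays left out. No column of sample values was left unused.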

Additional observations from a re-analysis of the deposited data

How the results depend on the processing

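limma called 27 genes at or above the median signal, 28 under a variance trend, 31 under its robust form, and 0 in all other settings. The lowest adjusted p of a named histone gene over all alternatives was 0.0952. Lower members at an unadjusted p under 0.05 numbered 7 after median centring (background 10.6%), 2 of 17 after the filter (13.2%), 0 at a threshold of 0.01 (1.34%) and between 2 and 5 with 1 array left out. Higher members numbered 4 after cyclic loess (background 6.82%), 3 of 17 after the filter (5.89%), 2 at a threshold of 0.01 (4.28%) and between 4 and 7 with 1 array left out. The clustered median was -0.037 after median centring and after the filter, and between -0.031 and 0.048 with 1 array left out. The variant median was -0.0072 after median centring, -0.046 after the filter, -0.013 with probe sets of several histone symbols added, and between 0.016 and 0.10 with 1 array left out. The filter left 8 of the 15 named genes, all with their direction; with 1 array left out, 12 to 15 of 15 kept it. H2aj turned to -0.021 after median centring and -0.0068 with saline replicate 1 and SAHA replicate 3 both removed. H2az2 turned to 0.018 under quantile normalization, 0.020 under cyclic loess and 0.017 with both odd arrays removed. With 1 array left out, H2aj lay between -0.012 and 0.064, H2az2 between -0.045 and 0.028, and Macroh2a3 between -0.0030 and 0.19. Fits with 1 array fewer hold fewer samples; otherwise the cause was not tested. The other 12 named genes kept their direction in each setting. Same-numbered arrays deviated from their group means with correlations of -0.105, -0.079 and 0.015. For SAHA and saline arrays of unlike number they were -0.084 to 0.15. With 3 arrays per group, some of which stood apart, this cannot decide whether the numbers pair the samples, and the labels state no pairing. With the replicate number as a block, 7 members were higher (background 11.1%) and 4 lower (4.38%), and 0 genes were called. 3 arrays per group limit the size of difference that can be detected.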

Other observations

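A further 47 probe sets pair with several symbols of which at least 1 is a histone gene, many of them genes that also have a probe set of their own. Of these, 33 had lower and 14 higher means in SAHA, and since some hold identical values there were 42 distinct ones, 30 lower and 12 higher. Among all genes 47.1% were lower, with 66.4% at or above the median signal and 27.7% below it. The share over all probe sets was not computed. The mean signals of these 47 probe sets ran from 4.63 to 9.87. The 10 of the clustered H3 genes ran from -0.11 to 0.050 log2, 6 of them lower, and the 7 of the clustered H2B genes (6 distinct, 4 of them lower) from -0.11 to 0.028. The 2 that pair mainly with clustered H2A genes differed by 0.0067 and 0.049, with 0 of these 3 families at an unadjusted p under 0.05 in limma. Among 6 of the clustered H4 genes, 5 were lower (2 of them with identical values). The 1 that pairs with H4c17 and H4c11 only was at 4.99, 4.78 and 4.75 in SAHA, against 4.378, 4.372 and 4.497 in saline. Its difference was 0.42 (SE 0.085) at an adjusted p of 0.212 in limma over all probe sets, and its mean signal was 4.63. The 5 lower ones bear both of these symbols too. They had mean signals of 8.29 to 8.74 and differed by -0.093 to -0.030. The 14 probe sets of the H2al genes of spermatids ran from -0.22 to 0.072, with 9 of 11 distinct ones lower. These probe sets share symbols and are not independent of each other.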
